A study of Mus musculus with 30 samples.

Results

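The response of the transcriptome to wild-type STAT3 was compared between the mouse haematopoietic progenitor lines HPCLSK and HPC7. Every gene received a line difference: its log2 fold change for STAT3 over empty vector in HPCLSK, minus the same log2 fold change in HPC7. The comparison took 12 of the 30 samples of the series, 3 libraries in each of 4 groups: HPCLSK with STAT3, HPCLSK with empty vector, HPC7 with STAT3 and HPC7 with empty vector. Each line carried a retroviral vector, and the labels name the empty vector after its dsRed marker. The labelled strain of the RNA samples is C57BL/6N for HPCLSK and 129SV for HPC7, although the chromatin samples of HPC7 are labelled C57BL/6N. All groups grew untreated in IMDM with stem cell factor and serum, HPCLSK on agarose-coated plates. Whether a transduced group is a pool or a clone, and which promoter drives the vector, is not given in the sources used here. The series text calls the 3 libraries of a group technical replicates, so errors and p-values measure how far those libraries spread, with no information on repeated transductions.

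STAT3 is a transcription factor that lies latent in the cytoplasm until Janus kinases, recruited by receptors such as gp130, phosphorylate it. It then dimerises through its SH2 domain, enters the nucleus and binds DNA. In blood progenitors it is known for granulocyte production downstream of the G-CSF receptor and for feedback through Socs3, which inhibits the kinases.

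Of 13467 genes tested, 1135 (8.43%) passed the test of the line difference with edgeR's quasi-likelihood test, the threshold being 0.05 for the adjusted p and 2 for the fold between the responses (a log2 difference of 1). At the adjusted p alone, 2222 (16.5%) were higher and 2072 (15.4%) lower. The line difference was higher in HPCLSK for 832 genes (6.18%) and lower for 303 genes (2.25%). The largest class, 426 of the 832 (51.2%), held genes that were lower with STAT3 in HPC7 and were not called in HPCLSK. A further 145 genes were higher with STAT3 in HPCLSK and not called in HPC7, 80 were higher in HPCLSK and lower in HPC7, 13 were lower in both lines but less so in HPCLSK, and 168 were called in neither line alone. Among the 303 on the other side, 97 were lower with STAT3 in HPCLSK and not called in HPC7, 89 were higher in HPC7 and not called in HPCLSK, 7 were lower in HPCLSK and higher in HPC7, 2 were lower in both, and 108 were called in neither line alone.

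Within HPCLSK, STAT3 against empty vector gave 696 called genes (5.17%), 436 higher (3.24%) and 260 lower (1.93%). Within HPC7 it gave 940 (6.98%), 219 higher (1.63%) and 721 lower (5.35%). The split therefore ran mostly upward in HPCLSK and mostly downward in HPC7. In both lines 18 genes were higher, which is 4.13% of those higher in HPCLSK and 8.22% of those higher in HPC7, beside 1.63% of all genes called higher in HPC7 and 3.24% in HPCLSK. Both lines shared 37 lower genes, 14.2% of those lower in HPCLSK and 5.13% of those lower in HPC7, beside 5.35% of all genes called lower in HPC7 and 1.93% in HPCLSK. Of the 721 genes lower with STAT3 in HPC7, 521 (72.3%) also had a called line difference, beside 8.43% of all genes. That share follows largely from the choice of genes, since the HPC7 response is itself a term of the line difference. Over all 721, the median response on the log2 scale was 0.02 in HPCLSK and -1.89 in HPC7. For the 436 genes higher with STAT3 in HPCLSK, the medians were 1.72 in HPCLSK and -0.27 in HPC7. Across all 13467 genes the responses of the lines, which share no library, had a Pearson r of -0.048 as a description across genes, which are not independent. The median line difference over all genes was -0.01, and the 5th and 95th percentiles were -0.98 and 2.02.

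**Figure D1:**
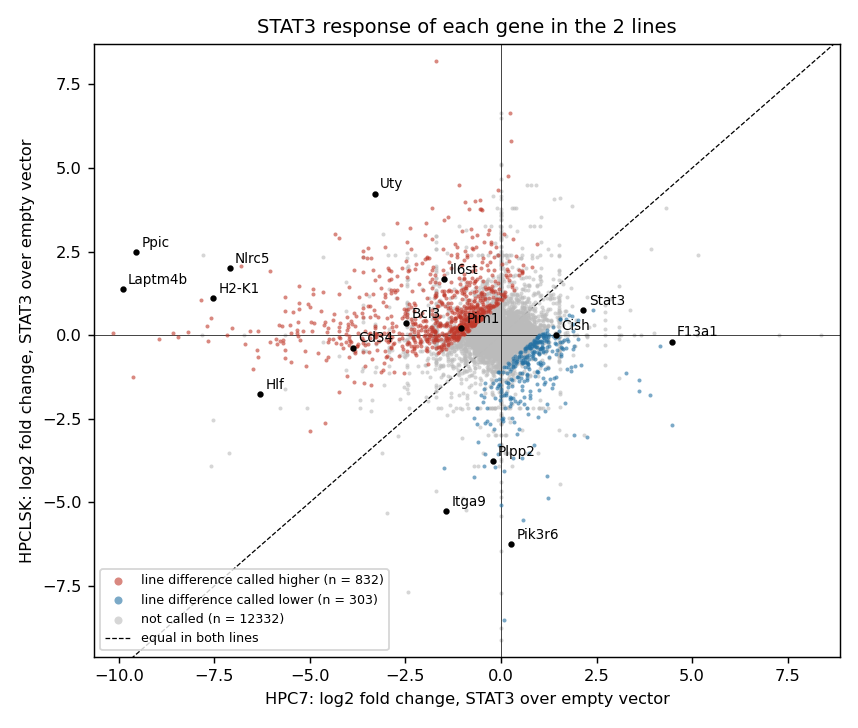
Each point is 1 of the 13467 genes tested, with the log2 fold change for STAT3 over empty vector in HPCLSK on the vertical axis and in HPC7 on the horizontal axis. The 832 genes with a higher line difference (red) spread to the left, where HPC7 values are negative, more than upward, and the 303 with a lower one (blue) lie below and to the right of the dashed line of equal response.

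The vectors did not bring Stat3 RNA to the same level. Stat3 (chromosome 11, 100885098 to 100939540, GRCm38) was at 600, 562 and 638 CPM (counts scaled by the library total) in HPCLSK with STAT3, and at 367, 343 and 361 CPM in HPCLSK with empty vector. In HPC7 it was at 1020, 1020 and 987 CPM with STAT3 and at 227, 236 and 217 CPM with empty vector. The STAT3 libraries lay above the empty vector libraries in both lines with no overlap, a separation in one direction or the other that 35.6% of all tested genes showed in HPCLSK and 53.3% in HPC7. The log2 fold change was 0.75 ± 0.05 in HPCLSK (SE, n = 3 libraries a group) and 2.15 ± 0.05 in HPC7, a line difference of -1.41 ± 0.07 (edgeR adjusted p = 1.8e-09). The counts hold vector RNA and RNA of the cell's own gene together. The line and the rise in Stat3 RNA therefore cannot be told apart in any result that follows.

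The 12 libraries held 9537258 to 37178037 counts, so that 3 counts correspond to 0.081 to 0.315 CPM, and the HPCLSK libraries, at 9537258 to 22154763, were the shallower. By the file headers, the libraries of HPCLSK came from one sequencing run and those of HPC7 from another, so line and run cannot be told apart in a level, while each STAT3 group shared its run with its own empty vector. The first principal component, with 90.3% of the variance, separated the lines, and the next 2 (3.6% and 3.0%) separated STAT3 from empty vector in HPC7 and in HPCLSK. Replicate 1 of HPCLSK with empty vector stood apart from its group, its counts giving a chi-square of 8.06 and 10.6 per degree of freedom against its partners, where the partners gave 2.49 between themselves. Without it, 839 genes had a higher line difference and 268 a lower one. The 3 HPC7 empty vector libraries also differed more (10.3 to 20.2) than those with STAT3 (3.17 to 3.99). All 9 markers fixed for stem and progenitor cells reached 1 CPM in some group, with Ly6a lowest at 2.02 CPM in HPCLSK with STAT3, 3.92 with empty vector, and 0.311 and 0.977 in HPC7. None of 4 B cell or 3 epithelial markers did so; among T cell markers only Lck did, and among stromal markers only Pdgfrb. Of 4 macrophage markers 3 did so, and the 4 summed to 101 to 215 CPM in HPCLSK with STAT3 and 119 to 161 CPM with empty vector, against 13.7 CPM in every library of HPC7 with STAT3 and 11.9 to 15.7 CPM with empty vector; their part in the results was not tested.

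The feedback inhibitors Socs3 and Cish and the targets Bcl3 and Pim1 each had a called line difference. Socs3, the feedback inhibitor, had 35.3, 44.5 and 41.2 CPM in HPCLSK with STAT3 and 34.7, 28.7 and 22.9 CPM with empty vector. HPC7 libraries had 1.80, 1.77 and 1.5 CPM with STAT3 and 3.49, 3.34 and 2.75 CPM with empty vector. The STAT3 libraries were the higher in HPCLSK and the lower in HPC7, without overlap in either line. The line difference was 1.40 ± 0.24 (edgeR adjusted p = 3.5e-04), although neither line's own change passed the fold minimum (0.50 ± 0.13 in HPCLSK and -0.90 ± 0.20 in HPC7).

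Bcl3, an atypical inhibitor of kappa B protein that works with NF-kB subunits in the nucleus, was at 25.2, 29.3 and 23.2 CPM in HPCLSK with STAT3 and 17.3, 22.1 and 21.7 CPM with empty vector. HPC7 libraries gave 1.27, 0.843 and 0.952 CPM with STAT3 and 5.49, 6.59 and 5.13 CPM with empty vector. Bcl3 fell in HPC7 (log2 fold change -2.48 ± 0.18) and was not called in HPCLSK (0.35 ± 0.12), and the line difference was 2.83 ± 0.22 (edgeR adjusted p = 2.3e-07). Pim1, a serine/threonine kinase of survival signalling, had 287, 305 and 287 CPM in HPCLSK with STAT3 and 286, 239 and 235 CPM with empty vector, against 51.1, 54.2 and 50.8 CPM in HPC7 with STAT3 and 105, 113 and 105 CPM with empty vector. It also fell in HPC7 (-1.05 ± 0.07), while the HPCLSK value was 0.21 ± 0.06, and the line difference was 1.26 ± 0.09 (edgeR adjusted p = 1.2e-07).

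Cish, a feedback inhibitor known mainly as a STAT5 target, moved the other way. It had 4.64, 5.33 and 4.63 CPM in HPCLSK with STAT3 and 4.86, 5.08 and 4.84 CPM with empty vector, which overlap. In HPC7 it rose to 12.9, 12.3 and 11.5 CPM with STAT3, against 4.2, 5.01 and 4.40 CPM with empty vector, a log2 fold change of 1.43 ± 0.10. Between the lines the response differed by -1.44 ± 0.16 (edgeR adjusted p = 8.4e-06).

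Over the list of STAT3 and cytokine-response targets, 31 of 33 members were tested, 8 had a higher line difference, 1 a lower one and 22 none. The median was 0.43 beside -0.01 over all genes. Counts of this and every later list stand beside 6.18% higher and 2.25% lower among all genes tested. The other higher members were Socs2, Fos, Vegfa, Fgl2 and Osm, of which Osm rests on 1 count in HPC7 with STAT3 and 12 with empty vector. Socs2, another feedback inhibitor, rose in HPCLSK to 3.17, 5.33 and 5.35 CPM with STAT3, against 1.12, 1.26 and 1.63 CPM with empty vector, and had a line difference of 1.32 ± 0.28 (edgeR adjusted p = 0.0020). Its HPC7 libraries were also higher with STAT3, at 6.26, 5.28 and 5.17 CPM against 4.12, 4.02 and 3.9 CPM with empty vector. That change (0.47 ± 0.16) did not pass the fold minimum. Vegfa, the endothelial growth factor, was at 51.7, 55.0 and 45.0 CPM in HPCLSK with STAT3 and 34.4, 33.5 and 34.9 CPM with empty vector. HPC7 hardly held it, with 0.062, 0.0544 and 0.136 CPM with STAT3 and 0.471, 0.599 and 0.440 CPM with empty vector, and the line difference was 3.10 ± 0.39 (edgeR adjusted p = 2.4e-05).

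Among 30 tested JAK-STAT components, 4 had a higher and 1 a lower line difference, and the median was -0.07. Il6st, which encodes the shared receptor gp130, was at 12.6, 17.6 and 12 CPM in HPCLSK with STAT3 and 4.19, 5.17 and 4.02 CPM with empty vector. The HPC7 values were 2.08, 1.44 and 1.97 CPM with STAT3 and 5.26, 5.44 and 4.60 CPM with empty vector. It rose in HPCLSK (log2 fold change 1.67 ± 0.17) and fell in HPC7 (-1.48 ± 0.19), a line difference of 3.15 ± 0.26 (edgeR adjusted p = 3.0e-07). Stat4, a transcription factor of the same family, had 54.7, 60.1 and 56.9 CPM in HPCLSK with STAT3 and 57.4, 55.6 and 54.8 CPM with empty vector. It fell in HPC7 to 5.24, 4.08 and 4.96 CPM with STAT3, against 19.5, 19.1 and 15.5 CPM with empty vector, and its line difference was 1.96 ± 0.13 (edgeR adjusted p = 5.7e-08).

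**Figure D2:**
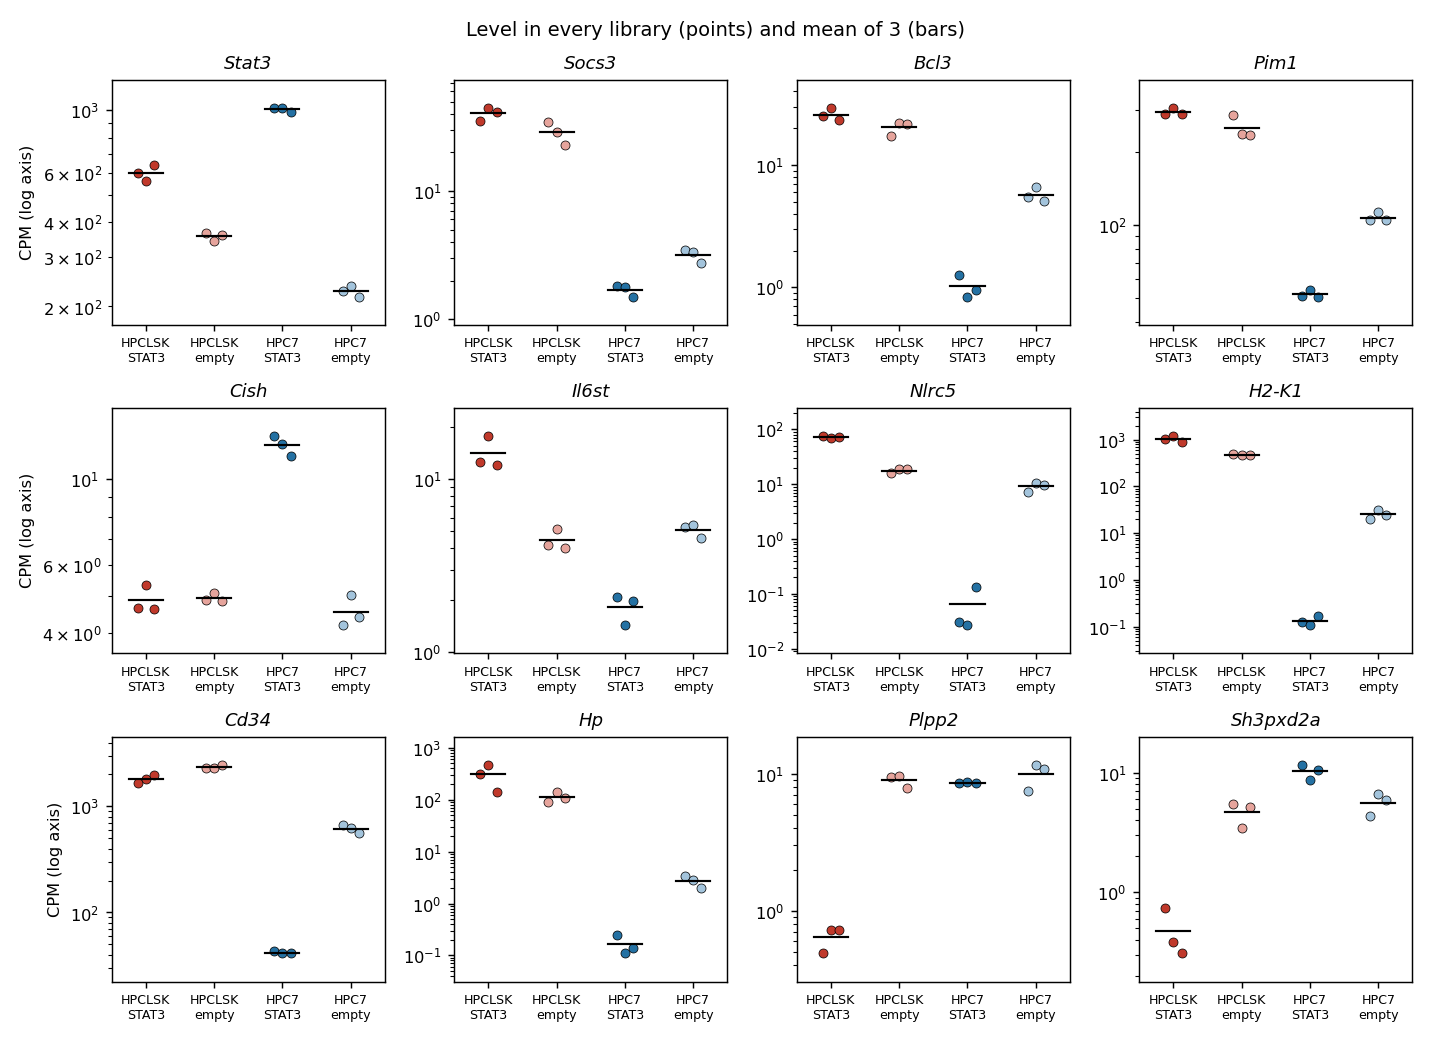
CPM on a log axis in each of the 3 libraries (points) and their mean (bars) for 12 genes, with HPCLSK with STAT3, HPCLSK with empty vector, HPC7 with STAT3 and HPC7 with empty vector from left to right. Il6st, Nlrc5, H2-K1 and Hp stand higher with STAT3 in HPCLSK and lower with STAT3 in HPC7, Cish is higher with STAT3 in HPC7 alone, and Plpp2 and Sh3pxd2a are lower with STAT3 in HPCLSK alone.

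STAT dimers recognise the palindrome TTCNNNGAA, where N is any base. It was searched in the 250 bases before the RefSeq gene start (build GRCm38.p6); being its own reverse complement, it reads alike on both strands. A match was present for 62 of 628 genes with a higher line difference and a window (9.87%), 16 of 211 with a lower one (7.58%), 710 of all 9769 tested genes with a window (7.27%) and 7.02% of all 32851 windows. Among 84 called list members with a window, 8 had a match. As examples from these 8, the sites of Socs3 and of 3 genes described in the paragraphs that follow are shown 5′ to 3′ on the gene's strand. The examples all had a higher line difference, and the display is no test of the motif. Capitals mark the motif.

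Socs3, chr11:117969502-117969530, minus strand: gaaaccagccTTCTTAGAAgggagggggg

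Bst2, chr8:71537590-71537618, minus strand: tctaggggcaTTCCAGGAAaatgaaactg

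Fcgr1, chr3:96294060-96294088, minus strand: aaggatgtatTTCCCAGAAaagggaacag

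Tnfrsf1b, chr4:145247033-145247061, minus strand: agcgcattcaTTCCCGGAAgagatgctgg

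The motif begins 154 bases before the start in Socs3, within an intron of a longer gene model of the annotation, and 136, 109 and 181 bases before it, outside the gene, in Bst2, Fcgr1 and Tnfrsf1b. A match is a description of the sequence, not a shown site of binding. Line differences were 1.40 for Socs3, 1.25 for Bst2, 1.06 for Fcgr1 and 2.24 for Tnfrsf1b, and of the 8 list members with a match only Gp5 was called lower (-1.83).

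MHC class I molecules display peptides to T cells, and 3 genes of that pathway on the antigen presentation list, Nlrc5, H2-K1 and H2-D1, rose in HPCLSK and fell in HPC7. H2-T10, which is not on that list, also rose in HPCLSK (1.15 ± 0.20) and fell in HPC7 (-3.03 ± 0.45, on 8 counts with STAT3 and 59 with empty vector). Others on the list did not follow: the peptide transporter genes Tap1 and Tap2, Tapbp and H2-T23 had no called change in either line and no called line difference. Nlrc5 (chromosome 8, 94434356 to 94527272), the transactivator of class I genes, was at 74.0, 68.8 and 72.7 CPM in HPCLSK with STAT3 and 15.9, 18.6 and 18.6 CPM with empty vector. In HPC7 it was at 0.031, 0.0272 and 0.136 CPM with STAT3 and 7.14, 10.7 and 9.53 CPM with empty vector. Nlrc5 thus rose in HPCLSK (2.01 ± 0.12) and nearly vanished in HPC7 (-7.10 ± 0.29), with a line difference of 9.11 ± 0.31 (edgeR adjusted p = 1.7e-11).

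H2-K1 (chromosome 17, 33996017 to 34000333), a class I heavy chain, showed the same pattern. It had 1020, 1170 and 907 CPM in HPCLSK with STAT3 and 490, 473 and 471 CPM with empty vector, against 0.124, 0.109 and 0.170 CPM in HPC7 with STAT3 and 20.4, 31.8 and 24.5 CPM with empty vector. The responses of the lines differed by 8.64 ± 0.30 (edgeR adjusted p = 2.5e-11). H2-D1, another heavy chain, differed by 2.93 ± 0.11 (edgeR adjusted p = 5.7e-11), with a rise in HPCLSK (1.2 ± 0.08) and a fall in HPC7 (-1.73 ± 0.08). H2 genes are close in sequence and polymorphic between strains, and the labels of HPC7 disagree on its strain, so the counting could split or lose their reads and their levels are uncertain. B2m, the light chain shared by class I molecules, was at 958, 1160 and 828 CPM in HPCLSK with STAT3 and 487, 588 and 564 CPM with empty vector, against 201, 197 and 196 CPM in HPC7 with STAT3 and 321, 363 and 338 CPM with empty vector. Neither change of B2m passed the fold minimum (0.85 ± 0.10 and -0.78 ± 0.10), while the line difference did (1.63 ± 0.14, edgeR adjusted p = 4.2e-07).

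Of 23 tested antigen presentation genes, 6 had a higher line difference and 2 a lower one, and the median was 0.53. The remaining higher members were Psmb9, a subunit of the immunoproteasome, and Gbp2, an interferon-induced guanylate-binding protein. Both lower members belong to the class II pathway. H2-DMa, which helps load peptide on class II molecules, was at 20.2, 20.3 and 19.8 CPM in HPCLSK with STAT3 and 71.5, 55.8 and 58.8 CPM with empty vector, and at 4.83, 5.41 and 6.29 CPM in HPC7 with STAT3 and 5.89, 5.74 and 4.95 CPM with empty vector. It fell in HPCLSK and overlapped in HPC7, and the line difference was -1.62 ± 0.16 (edgeR adjusted p = 2.6e-06). Its partner chain H2-DMb1 fell in HPCLSK (-1.27 ± 0.18) and rose in HPC7 (1.38 ± 0.19), with a line difference of -2.65 ± 0.26 (edgeR adjusted p = 2.1e-06). Without replicate 2 of HPCLSK with empty vector the list median was 0.87.

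Type I interferon-stimulated genes showed 9 higher and 0 lower line differences among 36 tested, with a median of 0.35. In HPC7, 12 of the 36 fell with STAT3 and 0 rose, beside 5.35% lower and 1.63% higher of all genes. In HPCLSK 3 fell and 0 rose, beside 1.93% lower and 3.24% higher of all genes. Ifitm1, a membrane protein that hinders virus entry, was at 257, 315 and 231 CPM in HPCLSK with STAT3 and 128, 156 and 139 CPM with empty vector. HPC7 libraries gave 0.093, 0 and 0.068 CPM with STAT3 and 1.26, 2.40 and 1.96 CPM with empty vector, a line difference of 5.98 ± 0.58 (edgeR adjusted p = 1.7e-06). Ifitm3 of the same family differed by 4.57 ± 0.41 (edgeR adjusted p = 8.0e-07): it fell in HPC7 (-4.21 ± 0.37) and had a log2 fold change of 0.36 ± 0.16 in HPCLSK. Ifitm genes are close copies, so reads could be split between them.

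The other interferon-stimulated members were Isg15, Ifi27, Ifi27l2a, Bst2, Parp14, Xaf1 and Lgals3bp, with line differences of 1.16 to 4.07. Bst2, which tethers budding virus to the cell, had 46.3, 51.4 and 44.1 CPM in HPCLSK with STAT3 and 54.4, 57.6 and 58.6 CPM with empty vector. It fell in HPC7 to 0.868, 0.816 and 1.16 CPM with STAT3, against 2.31, 3.42 and 2.40 CPM with empty vector. Its line difference of 1.25 ± 0.21 (edgeR adjusted p = 2.7e-04) thus came with lower STAT3 libraries in both lines.

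Granulocyte genes had the largest list median, 2.64, among lists of at least 10 tested members. Of 25 genes, all tested, 11 had a higher line difference, 0 a lower one and 14 none. Within HPCLSK, 14 rose and 0 fell with STAT3, beside 3.24% higher and 1.93% lower of all genes, and the list median was 1.26. Within HPC7, 1 rose and 7 fell, beside 1.63% higher and 5.35% lower of all genes, and the median was -1.10. Of the members, 7 had 0 counts in HPC7 with STAT3 and 3 had 0 with empty vector. The HPC7 median and that of the line difference thus rest partly on values near 0. The summed level of the list was 17000 to 25700 CPM in HPCLSK with STAT3 and 9750 to 14900 CPM with empty vector, against 428 to 454 CPM in HPC7 with STAT3 and 529 to 873 CPM with empty vector. In bulk RNA, fewer cells of a type and less RNA per cell cannot be told apart, and the part of the cell makeup in these values was not tested.

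Cebpe, a transcription factor of late granulocyte maturation, was at 37.0, 20.7 and 24.6 CPM in HPCLSK with STAT3 and 6.28, 8.31 and 6.24 CPM with empty vector. HPC7 libraries held 0.248, 0.109 and 0.374 CPM with STAT3 and 0.745, 0.728 and 0.615 CPM with empty vector. It rose in HPCLSK, fell in HPC7 and had a line difference of 3.49 ± 0.53 (edgeR adjusted p = 1.3e-04). Cxcr2, the chemokine receptor that draws neutrophils out of marrow, rose in HPCLSK to 30.6, 16.6 and 24.8 CPM with STAT3, against 4.19, 5.98 and 5.01 CPM with empty vector. In HPC7 it had 11.7, 11 and 10.6 CPM with STAT3 and 14.8, 16.4 and 15.9 CPM with empty vector, and its line difference was 2.69 ± 0.25 (edgeR adjusted p = 1.2e-06).

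Hp, which encodes the haemoglobin-binding protein haptoglobin, was at 319, 468 and 142 CPM in HPCLSK with STAT3 and 91.7, 143 and 110 CPM with empty vector. The HPC7 values were 0.248, 0.109 and 0.136 CPM with STAT3 and 3.37, 2.82 and 1.99 CPM with empty vector. The HPCLSK groups overlapped in 1 library of each, the HPC7 groups did not, and the line difference was 5.43 ± 1.08 (edgeR adjusted p = 0.0012). S100a9, a subunit of the neutrophil protein calprotectin, was at 3240, 2410 and 1560 CPM in HPCLSK with STAT3 and 129, 455 and 292 CPM with empty vector. In HPC7 it was near 0 in every library, with 2 counts over the STAT3 group and 43 over the empty vector group, a ratio of 25.8 (95% counting interval 6.73 to 220) in favour of empty vector. Its line difference of 7.38 ± 2.55 passed narrowly (edgeR adjusted p = 0.037), and the call was lost in 7 of the 12 fits that each left out 1 library.

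The other called granulocyte genes were Mpo, Prtn3, Ms4a3, Cebpa, Gfi1, Csf3r and Ltf. Csf3r, the G-CSF receptor, was at 557, 571 and 495 CPM in HPCLSK with STAT3 and 404, 499 and 497 CPM with empty vector, which overlap. It fell in HPC7 to 20.4, 20.6 and 21.1 CPM with STAT3, against 37.3, 53.5 and 41.1 CPM with empty vector, and the line difference was 1.30 ± 0.15 (edgeR adjusted p = 1.3e-05). Cebpa, a transcription factor needed to enter the granulocyte path, differed by 1.46 ± 0.26 (edgeR adjusted p = 4.5e-04), with a fall in HPC7 (-1.36 ± 0.23) and 0.10 ± 0.12 in HPCLSK.

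Monocyte and macrophage genes gave 7 higher and 2 lower line differences among 18 tested, with a median of 1.24. Their summed level was 1580 to 2760 CPM in HPCLSK with STAT3 and 1380 to 1750 CPM with empty vector, against 147 to 151 CPM in HPC7 with STAT3 and 200 to 249 CPM with empty vector. Itgam, the integrin chain CD11b, was at 142, 124 and 94.6 CPM in HPCLSK with STAT3 and 56.8, 73.1 and 66.4 CPM with empty vector, and at 1.86, 1.41 and 1.73 CPM in HPC7 with STAT3 and 4.59, 5.09 and 4.13 CPM with empty vector. Its line difference was 2.33 ± 0.25 (edgeR adjusted p = 5.2e-06). Ctss, a lysosomal protease, differed by 5.86 ± 1.03 (edgeR adjusted p = 4.5e-04), with 1 count over the HPC7 STAT3 group and 41 over its empty vector group. Fcgr1, the high-affinity receptor for IgG, differed by 1.06 ± 0.24 (edgeR adjusted p = 0.0033), and Lyz2, Adgre1, Mpeg1 and Cx3cr1 differed by 1.73 to 5.02.

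The lower members were Itgax and F13a1. Itgax, the integrin chain CD11c, was at 4.72, 6.78 and 3.91 CPM in HPCLSK with STAT3 and 6.50, 5.62 and 6.47 CPM with empty vector. It rose in HPC7 to 22, 20.6 and 20.2 CPM with STAT3, against 7.49, 7.23 and 7.03 CPM with empty vector, and the line difference was -1.72 ± 0.20 (edgeR adjusted p = 9.1e-06). F13a1, a chain of coagulation factor XIII, rose in HPC7 to 1.30, 1.14 and 1.09 CPM with STAT3, against 0.0785, 0.0428 and 0.0293 CPM with empty vector, and differed by -4.66 ± 0.83 (edgeR adjusted p = 4.8e-04).

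**Figure D3:**
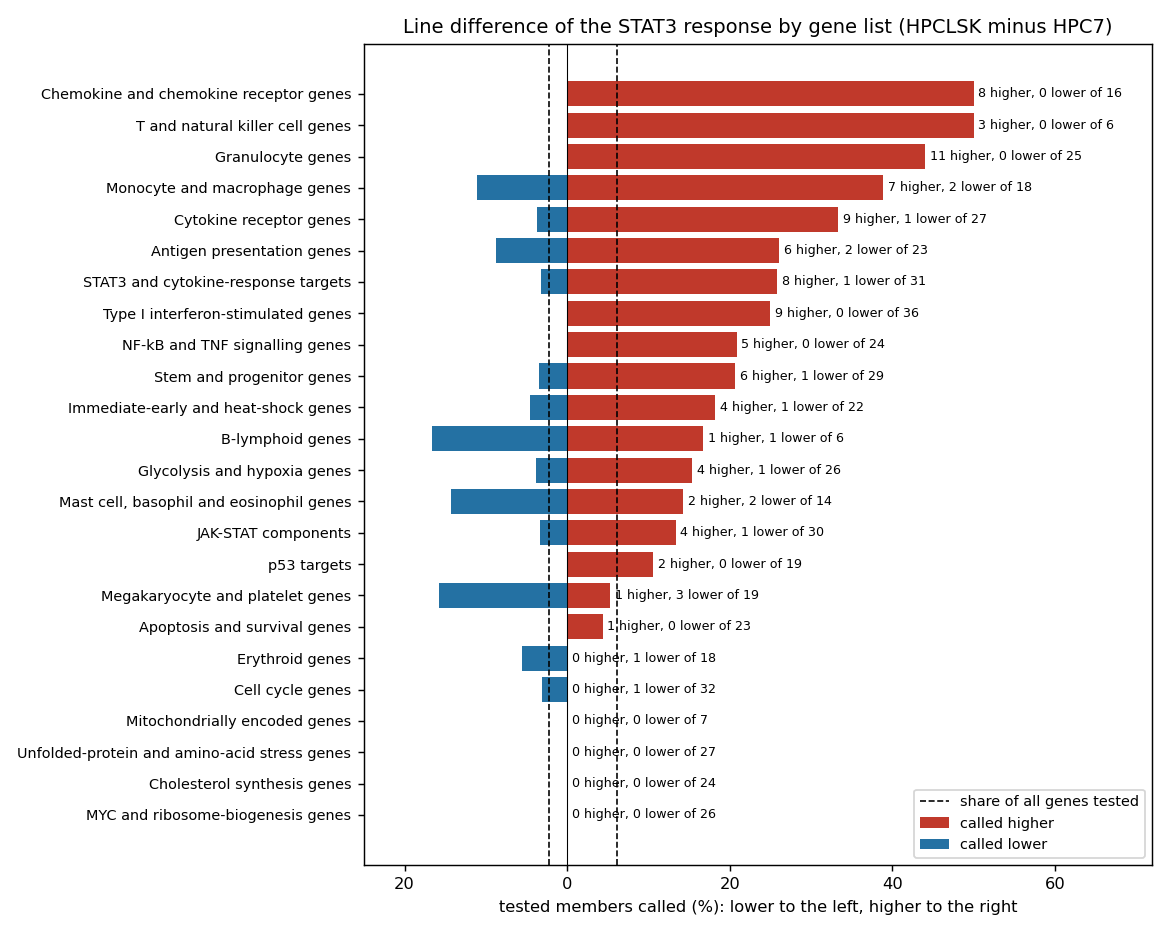
Share of the tested members of each gene list with a higher (red, right) or lower (blue, left) line difference, with the counts beside each bar and dashed lines at the shares over all 13467 genes (6.18% higher and 2.25% lower). Chemokine, T and natural killer cell (2 of whose 3 calls rest on at most 8 counts a group in HPCLSK), granulocyte and monocyte lists stand at the top, and the cholesterol, unfolded-protein, MYC and mitochondrial lists have no called member; lists under 6 tested members are not drawn.

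Cytokine receptors gave 9 higher and 1 lower line differences among 27 tested, with a median of 0.61. Il10ra, a chain of the interleukin 10 receptor, was at 95.6, 97.6 and 89.8 CPM in HPCLSK with STAT3 and 68.1, 78.8 and 87.9 CPM with empty vector. In HPC7 it had 1 count over the STAT3 group and 265 over the empty vector group, a ratio of 319 (95% counting interval 56.7 to 12600) in favour of empty vector. The line difference was 7.95 ± 0.61 (edgeR adjusted p = 1.8e-07). Il1r1, the signalling receptor of interleukin 1, rose in HPCLSK to 4.96, 5.86 and 6.99 CPM with STAT3, against 1.57, 2.38 and 2.68 CPM with empty vector, and had 2 counts in HPC7 with STAT3 and 64 with empty vector. It differed by 6.30 ± 0.62 (edgeR adjusted p = 2.2e-06).

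Among the remaining receptors, Csf2ra (GM-CSF), Il15ra, Ifngr2, Il2rg and Flt3 differed by 1.27 to 3.36. Csf2ra rests on 2 counts in HPC7 with STAT3 and 11 with empty vector. Flt3, the FLT3 ligand receptor of early progenitors, fell in both lines: to 23.1, 24.7 and 30.6 CPM in HPCLSK with STAT3, against 52.3, 52.5 and 65.6 CPM with empty vector, and to 0.279, 0.435 and 0.374 CPM in HPC7 with STAT3, against 2.75, 1.80 and 1.99 CPM with empty vector. The fall was steeper in HPC7, a line difference of 1.42 ± 0.33 (edgeR adjusted p = 0.0033). Crlf2, a chain of the TSLP receptor, was the lower member at -1.04 ± 0.13 (edgeR adjusted p = 3.0e-05).

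Of 16 tested chemokines and chemokine receptors, 8 had a higher line difference and 0 a lower one, with a median of 1.70. Cxcr4, which holds progenitors in the marrow niche, was at 122, 126 and 121 CPM in HPCLSK with STAT3 and 80.9, 106 and 96.2 CPM with empty vector. It fell in HPC7 to 0.062, 0.218 and 0.204 CPM with STAT3, against 8.32, 3.25 and 4.37 CPM with empty vector, and differed by 5.36 ± 0.49 (edgeR adjusted p = 1.1e-06). The chemokines Ccl3 and Ccl6 and the receptor Ccr1 rose in HPCLSK and fell in HPC7, with line differences of 2.65 to 2.70. Ccr1 was at 10.1, 10.7 and 8.74 CPM in HPCLSK with STAT3 and 5.46, 5.08 and 4.2 CPM with empty vector, against 1.21, 1.28 and 1.36 CPM in HPC7 with STAT3 and 4.79, 3.98 and 3.25 CPM with empty vector.

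Among 24 NF-kB and TNF signalling genes, 5 were higher and 0 lower, with a median of 0.33: Bcl3, Nfkbia, Tnfrsf1b, Tnfaip2 and Ikbke. Ikbke, an inhibitor of kappa B kinase, was at 114, 124 and 76.9 CPM in HPCLSK with STAT3 and 57.6, 73.6 and 67.4 CPM with empty vector, and at 0.093, 0.272 and 0.238 CPM in HPC7 with STAT3 and 3.41, 3.04 and 2.58 CPM with empty vector. Between the lines the response differed by 4.51 ± 0.44 (edgeR adjusted p = 2.1e-06). Tnfrsf1b, a receptor of tumour necrosis factor, was at 147, 162 and 117 CPM in HPCLSK with STAT3 and 85.1, 109 and 107 CPM with empty vector, and fell in HPC7 to 0.217, 0.0816 and 0.170 CPM with STAT3, against 0.510, 0.556 and 0.498 CPM with empty vector. Its line difference was 2.24 ± 0.57 (edgeR adjusted p = 0.0068).

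**Figure D4:**
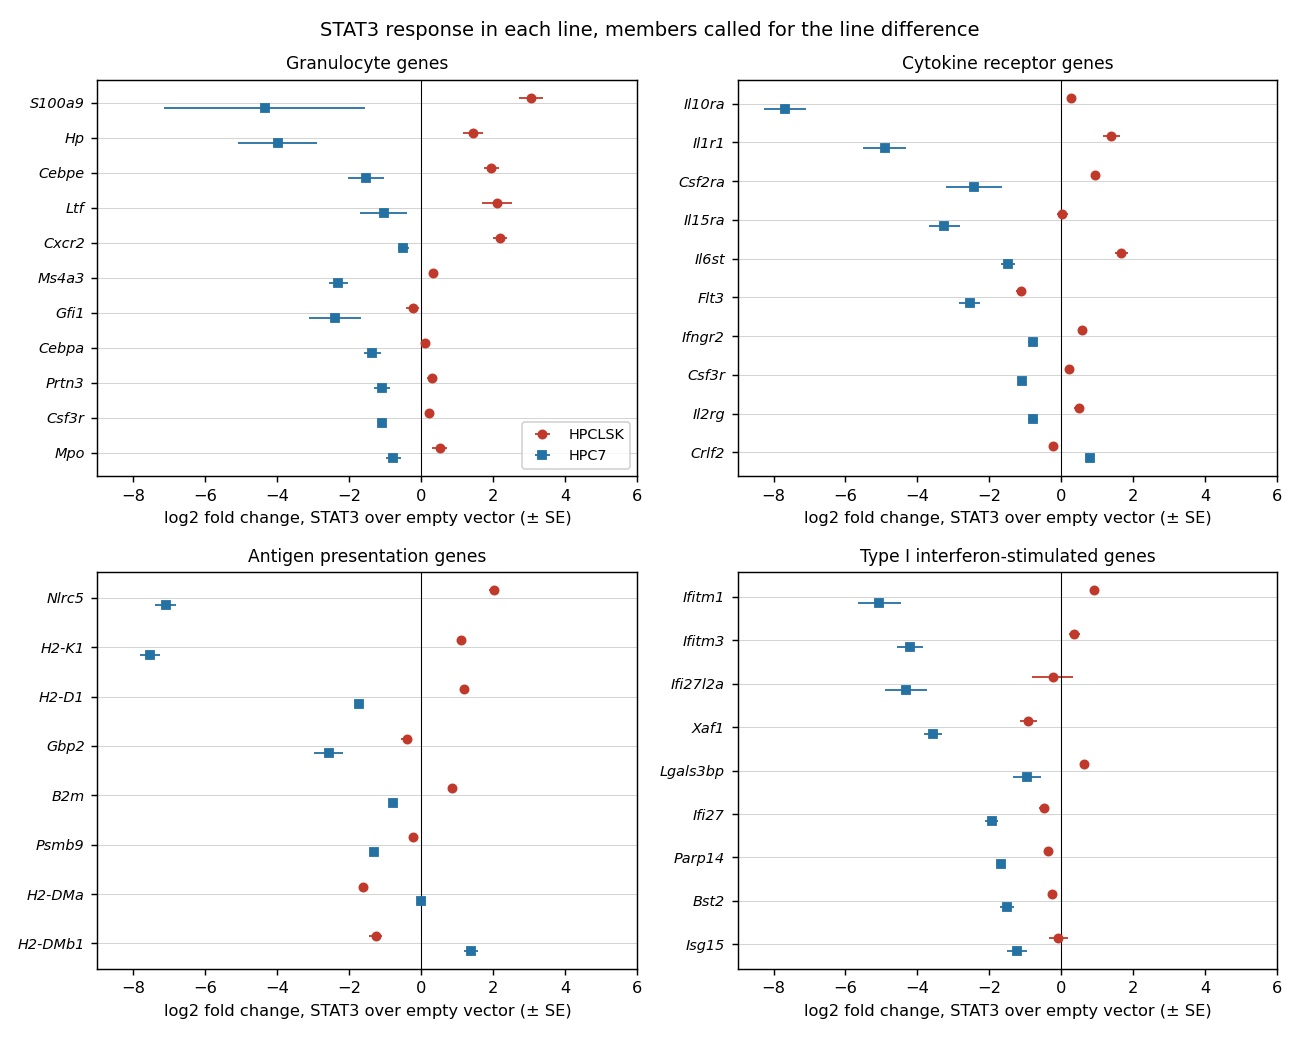
Log2 fold change for STAT3 over empty vector with its SE in HPCLSK (red circles, drawn above) and HPC7 (blue squares, drawn below) for the members of 4 lists with a called line difference. HPC7 values lie left of 0 for most members, H2-DMa and H2-DMb1 show the reverse order, and S100a9 and Hp carry the widest errors.

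Stem and progenitor genes gave 6 higher and 1 lower line differences among 29 tested, with a median of 0.28. Cd34 (chromosome 1, 194938819 to 194961279), the surface sialomucin used to sort progenitors, was at 1660, 1830 and 1990 CPM in HPCLSK with STAT3 and 2310, 2310 and 2460 CPM with empty vector. It fell in HPC7 to 42.9, 41.2 and 41.1 CPM with STAT3, against 663, 620 and 559 CPM with empty vector. STAT3 libraries were lower in both lines without overlap, but the HPCLSK change (-0.37 ± 0.07) did not pass the fold minimum, and the line difference was 3.51 ± 0.10 (edgeR adjusted p = 3.0e-12).

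Hlf, a transcription factor of stem cell quiescence, fell in both lines. It was at 39.9, 37.3 and 48.2 CPM in HPCLSK with STAT3 and 155, 130 and 140 CPM with empty vector (log2 fold change -1.77 ± 0.10), while HPC7 had 1 count over the STAT3 group and 102 over the empty vector group. The responses of the lines differed by 4.54 ± 0.79 (edgeR adjusted p = 4.1e-04). Hoxb4, a homeobox factor that expands stem cells, rose in HPCLSK to 1.79, 1.25 and 1.03 CPM with STAT3, against 0.299, 0.225 and 0.350 CPM with empty vector, and differed by 2.01 ± 0.34 (edgeR adjusted p = 2.8e-04). Lmo2, a cofactor of the stem cell transcription complex, was the lower member at -1.01 ± 0.11 (edgeR adjusted p = 6.5e-06), just past the fold minimum, and neither line's own change was called.

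Red cell, platelet and mast cell genes formed 3 further lineage lists. Of 19 megakaryocyte and platelet genes, 1 was higher and 3 were lower, with a median of -0.22. Itga2b, the platelet integrin chain CD41, was at 586, 625 and 640 CPM in HPCLSK with STAT3 and 1420, 990 and 1050 CPM with empty vector, and rose in HPC7 to 454, 474 and 448 CPM with STAT3, against 208, 227 and 232 CPM with empty vector. Its line difference was -1.94 ± 0.14 (edgeR adjusted p = 8.0e-08). Gp5, a chain of the von Willebrand factor receptor, and Selp, the adhesion molecule P-selectin, differed by -1.83 ± 0.25 and -2.64 ± 0.49 (edgeR adjusted p = 4.3e-05 and 6.6e-04). Mmrn1, a platelet alpha-granule protein, went against them: it rose in HPCLSK to 3.5, 3.65 and 2.57 CPM with STAT3, against 1.05, 0.988 and 0.524 CPM with empty vector, and fell in HPC7 to 3.59, 2.77 and 3.60 CPM with STAT3, against 21.4, 41.0 and 38.0 CPM with empty vector (line difference 5.30 ± 0.46, edgeR adjusted p = 6.1e-07).

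Of 18 erythroid genes, Car2 alone was called. Car2, a carbonic anhydrase of red cells, fell in HPCLSK to 11.6, 16.4 and 15.0 CPM with STAT3, against 77.5, 36.7 and 41.1 CPM with empty vector. In HPC7 it was at 3220, 3130 and 3320 CPM with STAT3 and 1880, 1940 and 1870 CPM with empty vector, a line difference of -2.57 ± 0.28 (edgeR adjusted p = 5.9e-06). Among mast cell, basophil and eosinophil genes, 14 were tested and 2 were higher (Hdc and Mitf) and 2 lower (Fcer1g and Siglecf). The list median was -0.42, and without replicate 1 of HPCLSK with empty vector it was 0.14.

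No line difference was called among 26 MYC and ribosome-biogenesis genes, 24 cholesterol synthesis genes, 27 unfolded-protein and amino-acid stress genes or 7 mitochondrially encoded genes, with medians of -0.16, -0.24, -0.01 and 0.14. Cell cycle genes gave 1 lower call of 32, the inhibitor Cdkn2c, and apoptosis and survival genes 1 higher call of 23, the BH3-only gene Bmf. Beside the 8.43% called among all genes, 19.2% of glycolysis and hypoxia genes (4 higher and 1 lower of 26), 10.5% of p53 targets (2 higher of 19) and 22.7% of immediate-early and heat-shock genes (4 higher and 1 lower of 22) were called. In the last list the lower gene, Egr1, had 17.2, 29.1 and 18.7 CPM in HPCLSK with STAT3, against 180, 15.0 and 13.7 CPM with empty vector. Its line difference of -2.91 ± 0.95 (edgeR adjusted p = 0.029) turned on 1 library and was -0.68 without replicate 1 of HPCLSK with empty vector. B-lymphoid genes gave 1 higher (Ighm) and 1 lower (Cd79b) of 6, T and natural killer cell genes 3 higher of 6 (Cd4, Zap70 and Nkg7), and stromal genes 0 of 4. Cd4 rests on 3 counts in HPCLSK with STAT3 and 0 with empty vector, and Zap70 on 8 and 3, with no called change of either in HPCLSK. In all, 489 tested genes stood in at least 1 list, of which 84 were called higher and 17 lower.

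Many of the larger line differences belonged to genes that were nearly silent with STAT3 in HPC7. A total of 48 genes had at most 3 counts over the 3 HPC7 STAT3 libraries and at least 30 over the HPC7 empty vector libraries. Of these, 39 had a called line difference, and 37 had at least 30 counts in both HPCLSK groups. The same rule found 12 genes silent with STAT3 in HPCLSK, 5 of them with a called line difference, and 4 genes silent with empty vector in each line. The rule uses counts that also form the line difference. The numbers called, beside 8.43% of all genes, therefore follow largely from the rule and are a description. Nr3c1, the glucocorticoid receptor (chromosome 18, 39410545 to 39491301), was at 103, 92.9 and 91.1 CPM in HPCLSK with STAT3 and 89.8, 88.9 and 94.8 CPM with empty vector, which overlap. In HPC7 it had 0 counts with STAT3 and 517 with empty vector, at least 207-fold lower when the group is set to a floor of 3 counts, and its line difference was 10.22 ± 0.70 (edgeR adjusted p = 2.4e-07).

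Laptm4b, a lysosomal membrane protein, rose in HPCLSK to 14.3, 18.8 and 13.4 CPM with STAT3, against 7.70, 5.62 and 5.01 CPM with empty vector, and had 0 counts in HPC7 with STAT3 and 423 with empty vector, at least 169-fold lower. Ppic, a cyclophilin that folds proteins in the secretory pathway, rose in HPCLSK to 14.2, 19.1 and 14.7 CPM with STAT3, against 4.49, 2.02 and 2.62 CPM with empty vector. It had 1 count in HPC7 with STAT3 and 952 with empty vector, a ratio of 1140 (95% counting interval 205 to 45200) in favour of empty vector. These fitted line differences and their errors, 11.28 ± 0.71 for Laptm4b and 12.03 ± 0.67 for Ppic, rest on values near 0 and depend on the prior count. Smad1, a transcription factor of BMP signalling, and Arid5b, a chromatin-binding protein, had no called change in HPCLSK. In HPC7 with STAT3 both had 0 counts, at least 51.7-fold and 68.5-fold lower than with empty vector. Dbt, a mitochondrial enzyme subunit of branched-chain amino acid breakdown, had 36.4, 40.4 and 40.1 CPM in HPCLSK with STAT3 and 41.9, 43.4 and 39.7 CPM with empty vector, against 0.062, 0.0544 and 0 CPM in HPC7 with STAT3 and 18.4, 25.6 and 23.9 CPM with empty vector (line difference 8.84 ± 0.31, edgeR adjusted p = 2.7e-11).

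Of the 12 smallest line differences taken by the rule for named genes, 8 belonged to genes that fell with STAT3 in HPCLSK, and 4 (Epha2, F13a1, Mtap and Omp) to genes that rose in HPC7 and were not called in HPCLSK. For Epha2 and Omp the uncalled HPCLSK value was the larger part (-4.86 and -2.27, beside 1.24 and 1.16 in HPC7). It rests on 0 and 1 counts with STAT3 and 8 and 7 with empty vector. In HPC7, Mtap had 9 counts with STAT3 and 0 with empty vector, and F13a1 had 116 and 4. Plpp2, a lipid phosphate phosphatase (chromosome 10, 79526430 to 79533796), fell in HPCLSK to 0.488, 0.721 and 0.720 CPM with STAT3, against 9.5, 9.57 and 7.87 CPM with empty vector. HPC7 libraries gave 8.61, 8.70 and 8.50 CPM with STAT3 and 7.49, 11.6 and 10.9 CPM with empty vector, which overlap. The line difference was -3.55 ± 0.29 (edgeR adjusted p = 3.7e-07). Pik3r6, a regulator of the phosphoinositide kinase gamma, fell in HPCLSK to 0, 0.0961 and 0.206 CPM with STAT3, against 8.97, 7.10 and 6.88 CPM with empty vector, and differed by -6.53 ± 0.48 (edgeR adjusted p = 1.1e-07), with 5.67, 5.06 and 5.47 CPM in HPC7 with STAT3 and 3.18, 4.62 and 5.51 CPM with empty vector.

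Sh3pxd2a, a scaffold of invadopodia, was at 0.732, 0.384 and 0.308 CPM in HPCLSK with STAT3 and 5.46, 3.46 and 5.19 CPM with empty vector, and at 11.6, 8.68 and 10.5 CPM in HPC7 with STAT3 and 4.32, 6.59 and 5.95 CPM with empty vector. It fell in HPCLSK (-3.28 ± 0.35), while the HPC7 value was 0.86 ± 0.18, and the line difference was -4.15 ± 0.39 (edgeR adjusted p = 1.4e-06). Itga9, an integrin chain, fell in both lines, to 1.46, 2.11 and 1.03 CPM in HPCLSK with STAT3, against 96.2, 45.2 and 52.6 CPM with empty vector, and to 14.1, 14.1 and 13.6 CPM in HPC7 with STAT3, against 36.9, 42.9 and 34.3 CPM with empty vector. The fall was steeper in HPCLSK, a line difference of -3.81 ± 0.42 (edgeR adjusted p = 5.8e-06). Mdga1, Tie1 and Rab4a were low in HPCLSK (0, 3 and 3 counts over the group with STAT3, against 13, 66 and 133 with empty vector) and abundant in HPC7, so their line differences of -6.11 ± 0.96, -4.15 ± 0.67 and -5.09 ± 0.54 rest on few reads.

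Most called genes reached 1 CPM in both lines, but a smaller share of them did so than of all genes tested. A mean of at least 1 CPM in some group of both lines was reached by 553 of the 832 genes with a higher line difference (66.5%) and by 208 of the 303 with a lower one (68.6%), beside 76.8% of all genes tested. Genes at that level in HPCLSK groups alone made up 21.6% of the higher set and 13.2% of the lower set, and those in HPC7 groups alone 5.29% and 12.9%, beside 9.91% and 4.90% of all genes tested. Just inside the fold minimum lay Fam204a at -1.001 and Cdc42ep4 and Rnpep at 1.002, and just outside it Ybey at -1.0 and Ank3 at 1.0.

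Chromosomes 1 and 5 stood apart from the others. On chromosome 1, the 835 tested genes had a median line difference of 0.41, with medians of 0.06 in HPCLSK and -0.33 in HPC7, and 103 (12.3%) were called higher and 10 lower. On chromosome 5, the 897 tested genes had a median of -0.38, with -0.03 in HPCLSK and 0.35 in HPC7, and 26 were called higher and 50 (5.57%) lower. All other chromosomes with at least 20 tested genes had medians between -0.11 and 0.09. With the median of its chromosome subtracted from each gene, 801 were called higher and 263 lower, of which 785 and 258 were called without the subtraction too. Only the log2 value was shifted for these calls, and the adjusted p stayed that of the difference before subtraction. In HPC7, 15.2% of the chromosome 1 genes and 81.5% of the chromosome 5 genes had a log2 fold change above 0, beside 61.7% and 43.5% in HPCLSK.

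**Figure D5:**
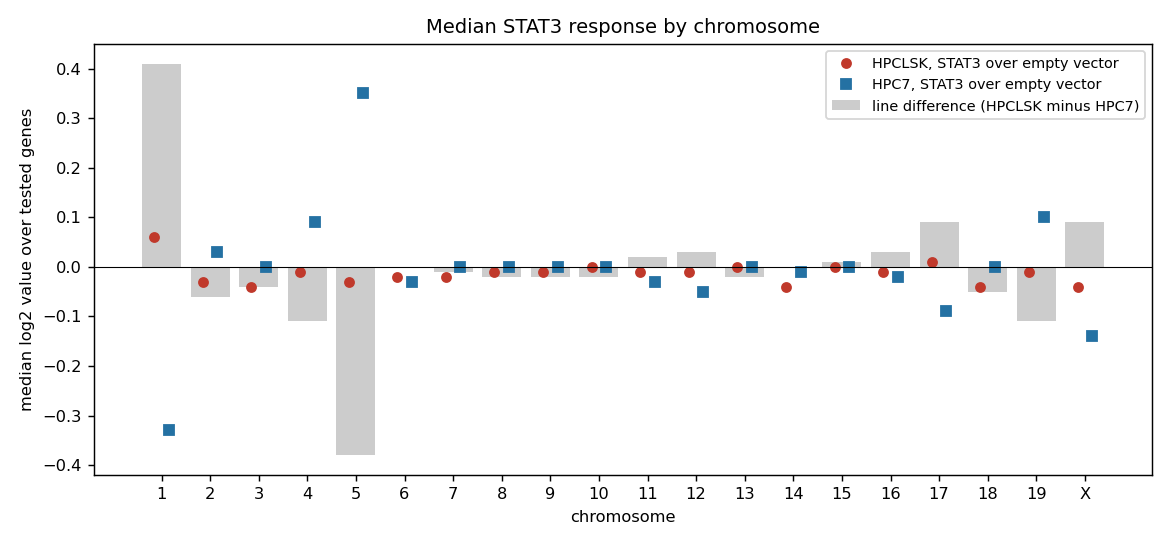
Median log2 value over the tested genes of each chromosome: the line difference (grey bars), the STAT3 response in HPCLSK (red circles) and that in HPC7 (blue squares). Chromosomes 1 and 5 have line differences of 0.41 and -0.38, and it is the HPC7 values, -0.33 and 0.35, that lie away from 0.

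On the Y chromosome 4 genes, Ddx3y, Eif2s3y, Uty and Gm29650, fell in HPC7 with STAT3, while Gm47283, at 38.8 CPM with STAT3 and 33.2 CPM with empty vector, was not called (0.23 ± 0.10). The 4 genes lie between positions 1010543 and 1286629, and Gm47283 lies far from them, at 90784738 to 90816464. Whether the Gm47283 reads come from the Y chromosome alone was not tested. Ddx3y, an RNA helicase, was at 158, 145 and 152 CPM in HPCLSK with STAT3 and 170, 152 and 152 CPM with empty vector, and fell in HPC7 to 13.2, 12.3 and 11.7 CPM with STAT3, against 114, 121 and 123 CPM with empty vector. Eif2s3y, a translation initiation factor subunit, and Ddx3y differed by 3.12 ± 0.08 and 3.20 ± 0.09 (edgeR adjusted p = 1.6e-12 for each), with HPC7 changes of -3.05 ± 0.06 and -3.26 ± 0.07. Uty, a histone demethylase relative, fell in HPC7 to 3.04, 3.13 and 3.26 CPM with STAT3, against 30.5, 28.0 and 34.6 CPM with empty vector (-3.31 ± 0.14). In HPCLSK Uty rose to 25.9, 22.6 and 24.1 CPM with STAT3, against 2.24, 0.899 and 0.991 CPM with empty vector, while Kdm5d, the Y-linked lysine demethylase, stayed at 71.2, 73.2 and 79.6 CPM with STAT3 and 74.2, 76.7 and 73.8 CPM with empty vector. Kdm5d had 0 counts in all HPC7 libraries of both groups.

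The line difference was also set against that of STAT3 Y640F, a form with a changed SH2 residue known to activate STAT3, in a fit of all 18 RNA libraries. There the difference between lines in the STAT3 response, minus that in the Y640F response, needs no empty vector library, since these cancel. It was called for 1734 of 13891 genes (12.5%), 1111 higher (8%) and 623 lower (4.48%), and of the 50 named genes 12 were higher, 8 lower and 30 not called. Since the named genes were chosen from the same STAT3 libraries that form one side of this contrast, that count and the values that follow are a description, and nothing is read from them. Pim1 had line differences of 1.28 for STAT3 and -0.40 for Y640F, which differed by 1.67 ± 0.13 (edgeR adjusted p = 1.2e-08). Bcl3 had 2.85 for STAT3 and 0.89 for Y640F (difference 1.96 ± 0.20, edgeR adjusted p = 3.5e-07).

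For Ifitm1, Ifitm3 and Cd34 the line differences under STAT3 and Y640F were 6.00 for STAT3 against 0.72 for Y640F, 4.59 against -0.15, and 3.52 against 0.40. Ifitm3 rose with Y640F in both lines, by 2.68 in HPCLSK and 2.83 in HPC7 on the log2 scale. Ddx3y had 3.22 for STAT3 and -0.18 for Y640F (difference 3.40 ± 0.09, edgeR adjusted p = 8.5e-15), at 12.3 CPM in HPC7 with STAT3, 118 CPM with Y640F and 118 CPM with empty vector. For Nr3c1, Ppic, Laptm4b, Dbt and Smad1 the HPC7 libraries of both STAT3 forms were near 0, and the line differences ran from 8.18 to 12.12 over both forms. With HPC7 at or near 0 counts under both forms, their contrast could not tell the forms apart. Stat3 RNA itself had line differences of -1.39 for STAT3 and 0.85 for Y640F, so the form and the level of Stat3 cannot be told apart in these contrasts.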

How the data were processed

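Counts of RNA reads per gene in 12 libraries were analysed, and 18 in the comparison with Y640F; the 12 chromatin samples were not used. Raw counts were deposited, made by the authors with featureCounts 1.5.1 at strand setting 2 over exons of GENCODE M13 (GRCm38) on STAR alignments, per the file headers, from reads trimmed with Trimmomatic, per the submitters' processing notes. Reads were single-end at 50 bp; the series text and the sample protocols name different library kits. Each file listed 50686 genes, and symbols were matched by gene ID for 50376; all values were whole numbers.

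The line difference was fitted with edgeR 4.0.16 (R 4.3.3, limma 3.58.1) on the 4 groups: TMM scaling, filterByExpr, the quasi-likelihood test with 8 residual degrees of freedom, and Benjamini-Hochberg adjustment over 13467 genes. Calls needed a log2 value of at least 1 in size and an adjusted p below 0.05; the fit was first tested on simulated data. CPM are scaled by TMM totals over 12 libraries. Errors, given as SE, are the size of the log2 value divided by the square root of the quasi-likelihood F statistic. Where a group has few or 0 counts, they depend on the prior count and are a poor measure of spread. Counting intervals are exact binomial at 95% and cover counting error only. DESeq2 1.42.0 and 8 other settings were tried as alternatives.

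Named genes were Stat3, Socs3, Pim1, Bcl3 and Cish, the 12 largest and 12 smallest called differences with an official symbol, at least 5 CPM in the highest group and no overlap in the line with the larger change, up to 5 with opposite calls in the lines, and up to 2 called members per list, at most 25 such members. Other genes in the text are list members chosen after their values were seen. The 26 lists and members were chosen with earlier results of these data known.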

Additional observations from a re-analysis of the deposited data

Results flagged for a closer look

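All 50 named genes were picked out because the STAT3 response itself, STAT3 minus empty vector on the log2 scale, differed between HPCLSK and HPC7 in edgeR's interaction test; positive values are higher in HPCLSK. They were named by the size of that same difference or from the lists, so their number is no finding. Among JAK-STAT feedback genes and targets, the difference was -1.41 for Stat3, 1.40 for Socs3, 1.26 for Pim1, 2.83 for Bcl3, -1.44 for Cish, 3.15 for Il6st, 3.32 for Osm and 3.10 for Vegfa. Among genes with hardly any reads in HPC7 with STAT3, it was 12.03 for Ppic, 11.28 for Laptm4b, 10.22 for Nr3c1, 8.84 for Dbt, 8.66 for Arid5b, 8.41 for Zfp770, 8.27 for Smad1, 8.11 for Lrrk2 and 7.96 for Dclk2. For genes of antigen presentation, interferon response and cytokine or chemokine signalling, the values were 9.11 for Nlrc5, 8.64 for H2-K1, 5.98 for Ifitm1, 4.57 for Ifitm3, 7.95 for Il10ra, 6.30 for Il1r1, 5.36 for Cxcr4 and 4.51 for Ikbke. Granulocyte, monocyte and lymphoid genes gave 7.38 for S100a9, 5.43 for Hp, 5.86 for Ctss, 5.02 for Mpeg1, 3.49 for Cx3cr1, -4.66 for F13a1 and 5.59 for Cd4. Progenitor, platelet and Y-linked genes gave 3.51 for Cd34, 4.54 for Hlf, 5.30 for Mmrn1, -2.64 for Selp, 7.53 for Uty and 3.20 for Ddx3y. Genes with few reads in HPCLSK with STAT3 gave -6.53 for Pik3r6, -6.11 for Mdga1, -6.10 for Epha2, -5.09 for Rab4a, -4.15 for Tie1, -3.79 for Pkd1l3 and -3.43 for Omp. Genes that fell in HPCLSK but kept more reads gave -4.15 for Sh3pxd2a (20 counts with STAT3 and 239 with empty vector), -3.81 for Itga9 (72 and 3197) and -3.55 for Plpp2 (28 and 475). The remaining values were -2.91 for Egr1 and -4.47 for Mtap. Omp rests on 1 count in HPCLSK with STAT3 and 7 with empty vector, and Mtap on 9 counts in HPC7 with STAT3 and 0 with empty vector, at least 2.5-fold higher. Epha2 had 0 counts in HPCLSK with STAT3 and 8 with empty vector, at least 2.18-fold lower. Cd4 had 3 counts in HPCLSK with STAT3 and 0 with empty vector, and 28 in HPC7 with STAT3 and 83 with empty vector.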

How the results depend on the processing

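With 832 genes called higher and 303 lower, the line difference gave 849 and 294 with DESeq2 size factors, 850 and 273 with the DESeq2 Wald test, 900 and 342 without the count filter, and 855 and 291 with all 18 RNA libraries. Replicate numbers did not pair the samples, since same-numbered libraries deviated together with correlations of -0.066 to 0.066; with replicate as a block the counts were 820 and 280, 416 and 258 in HPCLSK, and 220 and 709 in HPC7. Counts moved by over 1.5 times under a filter of at least 5 CPM in 3 libraries, which tests fewer genes: 168 lower line differences, 232 higher and 134 lower in HPCLSK, and 94 higher and 445 lower in HPC7. They also moved with glmTreat against a fold of 2 (382 and 92) and without the fold minimum (2222 and 2072).

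Leaving out each library in turn gave 756 to 855 higher and 268 to 300 lower line differences, with 725 to 788 and 249 to 271 shared with all libraries in; 839 and 268 came without replicate 1 of HPCLSK with empty vector. The counts were 380 to 458 higher and 233 to 279 lower in HPCLSK, and 205 to 232 higher and 683 to 769 lower in HPC7. The chromosome subtraction was chosen after seeing the data.

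No named gene reversed under any alternative. With glmTreat, the calls of 11 named genes were lost: Cish, Socs3, Epha2, Mpeg1, Pkd1l3, S100a9, Cd4, Cx3cr1, Osm, Omp and Egr1. Leaving out 1 library lost S100a9 (6.91 to 7.75), Cd4 (5.04 and 5.48), Cx3cr1 (2.92 and 3.00), Osm (2.57 to 2.96), Omp (-3.05) and Egr1 (-2.89 to -0.68). Egr1 was also lost with the replicate block (-2.14), and Cx3cr1 with 18 libraries (3.53). Genes under about 3 counts a library are beyond what this depth resolves.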
